A study of Mus musculus with 6 samples.

Results

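The 32 genes described here carry fatty acids into oxidation in mouse testis: acyl-CoA synthetases, the carnitine shuttle, the enzymes of mitochondrial β-oxidation, the electron transfer flavoprotein that drains it, 1 thioesterase and the regulator Ppara. They were taken as a list of symbols by a rule that uses no measured value, but the list was chosen with earlier results of these data known. Each symbol was matched exactly to the gene names of the deposited tables. All 32 were found among 24411 genes, and all 32 passed the filter on low counts that left 17110 genes tested. RNA sequencing (RNA-seq) of whole testis was done on 3 libraries labelled DKO and 3 labelled WT. The DKO animals carry the alleles given as MRP5-/- and MRP9-/-, 2 transporters of the ATP-binding cassette class encoded by Abcc5 and Abcc12. The WT animals are given as Wildtype. Both groups are C57BL/6 and age matched, with no age, treatment or design of the alleles stated. The series names 3 mice a group but the labels tie no library to an animal, so p-values measure only the spread between these samples. Whole testis is a mixture of cells, and fewer cells of a type and less RNA per cell cannot be told apart in any value below.

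A fatty acid must be joined to coenzyme A by an acyl-CoA synthetase before it can be used. Long acyl chains then cross into the mitochondrion as carnitine esters, made by carnitine palmitoyltransferase 1 on the outer membrane and turned back to acyl-CoA by carnitine palmitoyltransferase 2 on the inner one. Each round of β-oxidation is a dehydrogenation, a hydration, another dehydrogenation and a thiolytic cleavage, and the first step hands its electrons to the electron transfer flavoprotein. In the testis, Sertoli cells, Leydig cells and germ cells each handle fatty acids, and germ cells also use testis-enriched isoforms of several of these enzymes.

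The libraries differed in ways that bear on all genes. Expected counts, the read counts that RSEM assigns to each gene, summed to 42673615 to 67131103 in the libraries labelled DKO and 26753721 to 31745969 in those labelled WT. The mean fragment length read from the deposited effective lengths was 275 to 317 bases in DKO and 230 to 258 bases in WT. For both measures the groups did not overlap, at p = 0.1 in an exact two-sided permutation test, the smallest p that 3 against 3 allows. Of the targeted genes, Abcc12 had 82.1, 82.4 and 72.6 CPM (counts scaled to a common library total) in DKO and 165, 158 and 158 in WT. Abcc5 had 17.0, 16.7 and 16.8 CPM in DKO and 10.5, 12.3 and 11.4 in WT, so it was not lower in the libraries labelled DKO, and every direction below is between libraries as labelled. Markers of spermatids summed to 26983 to 31497 CPM over the 6 libraries, with overlapping groups. Single markers of the 17 did differ. In the edgeR test given below, 1 (Akap4) passed an adjusted p of 0.05 as higher and 2 (Prm3 and Gapdhs) as lower. Over all genes 5.75 percent passed as higher and 5.1 percent as lower. Prm3 had 27.8, 39.2 and 21.9 CPM in DKO and 155, 247 and 152 in WT. The 6 markers of epididymal epithelium summed to 7.04 to 7.43 CPM in DKO and 5.81 to 6.98 in WT, which did not overlap (p = 0.1 in an exact permutation test). Of these 6, Lcn5 and Lcn8 were at 0 in all libraries, Rnase10 had 4.36 to 6.27 CPM and Defb21 1.0 to 1.44 CPM.

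Most of these genes differed little between the groups. In edgeR's quasi-likelihood test with Benjamini-Hochberg adjustment over all tested genes, 4 of the 32 passed an adjusted p of 0.05, which is 12.5%. Acsl3, Acsl5 and Hadhb rose and Etfb fell in the libraries labelled DKO. Over all 17110 genes 10.8 percent were called, 5.75 percent higher and 5.1 percent lower, so the share among these genes was near the background and is no result about the list. limma on log2(TPM + 1) called 279 genes higher and 456 lower over all genes, and 0 and 2 (Acsbg2 and Etfb) of the 32. In 10 of the 32 the CPM values of the groups did not overlap, 4 higher and 6 lower, where 35.9 percent of all genes were apart (18.4 percent higher, 17.5 percent lower). Of the 32, 12 had an unadjusted p under 0.05, beside 31.7 percent of all genes. Their log2 fold changes ran from -0.68 for Acot2 to 0.50 for Acsl3, with a median of -0.08 beside -0.00 for all tested genes.

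**Figure D1:**
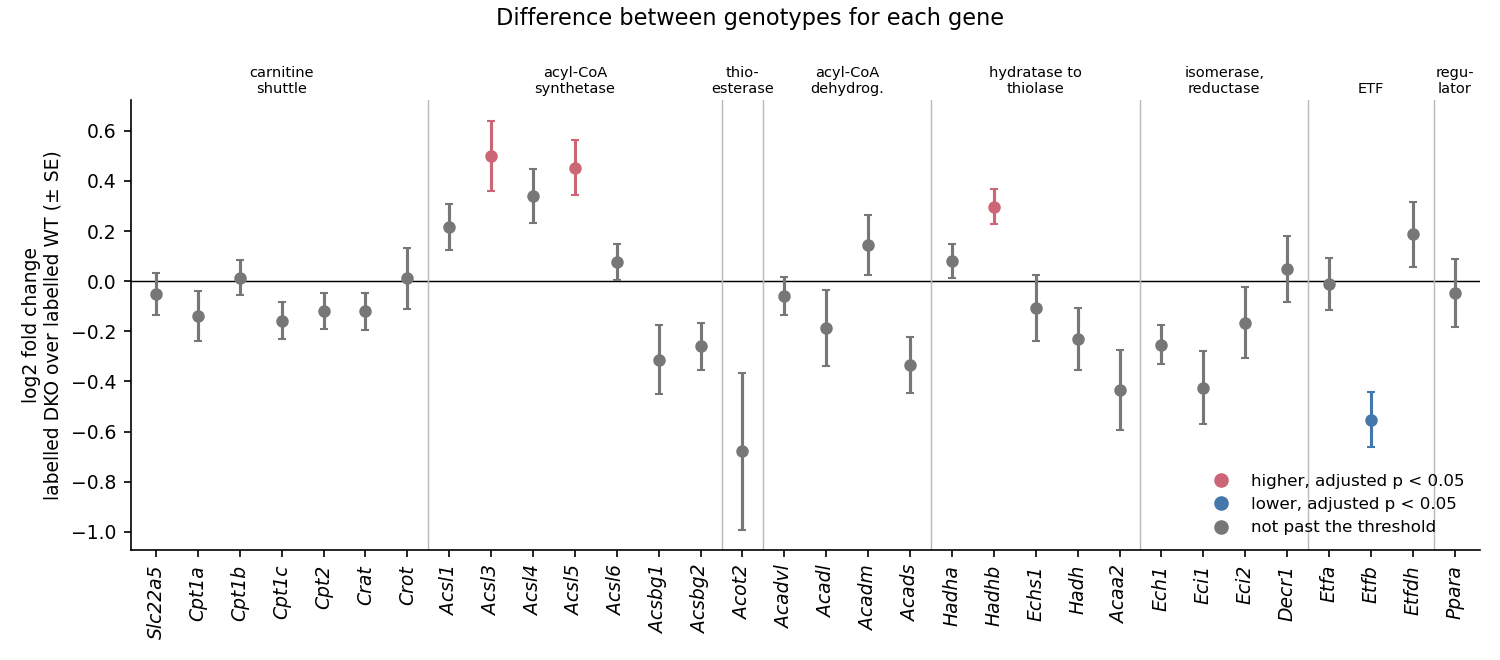
Log2 fold change of DKO over WT for each of the 32 genes, ordered by role, with bars of 1 standard error from edgeR's quasi-likelihood fit. The 3 genes called higher (Acsl3, Acsl5, Hadhb) lie at 0.30 to 0.50 and the gene called lower (Etfb) at -0.55.

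Levels between genes are compared in TPM, a unit scaled by transcript length within a library. By mean TPM over the 6 libraries, Acsl1 stood at 318, Crat at 288, Acsbg2 at 248, Cpt1b at 175, Hadha at 157 and Acsbg1 at 100.4, the 6 genes at or above 100 TPM. Of these 6, 5 are synthetases or carnitine acyltransferases. Of all 32 genes, 25 reached 10 TPM. The lowest were Ppara at 0.832 and Acot2 at 0.615 TPM. The 4 acyl-CoA dehydrogenases, which start each round of oxidation, lay between 10.5 TPM for Acads and 20.3 TPM for Acadvl.

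**Figure D2:**
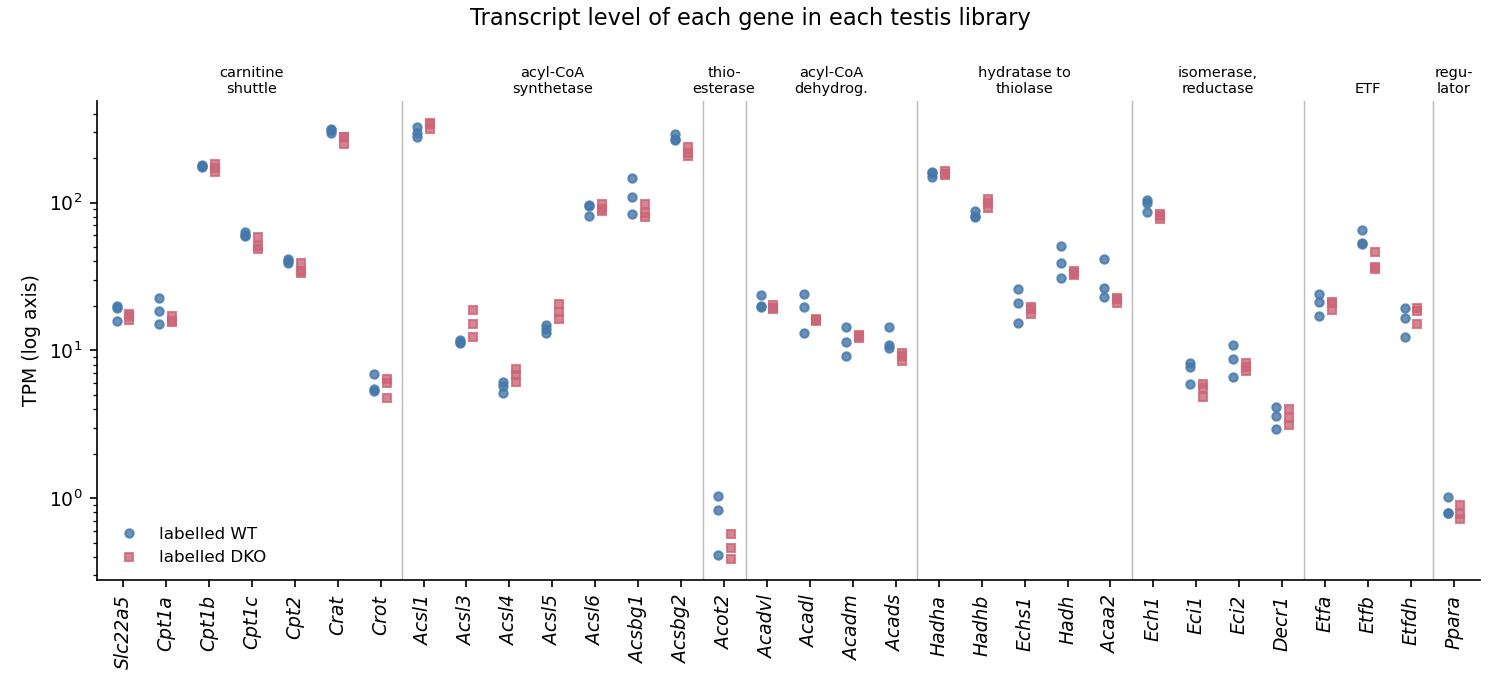
TPM of each gene in each of the 6 libraries on a log axis, ordered by role, with libraries labelled WT and DKO marked separately. Acsl1, Crat and Acsbg2 lie highest, and Ppara and Acot2 lie below 1 TPM on average.

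Of the 7 synthetases, 5 (Acsl1, Acsl3, Acsl4, Acsl5 and Acsl6) had positive log2 fold changes and 2 (Acsbg1 and Acsbg2) negative ones. In CPM, Acsl3, Acsl4 and Acsl5 lay higher in DKO without overlap, while in TPM the groups overlapped for Acsl4. Acsl3, a long-chain synthetase of the endoplasmic reticulum and lipid droplets, had 28.6, 25.6 and 28.2 CPM in WT and 47.7, 39.3 and 29.8 in DKO. The groups did not overlap, but the lowest DKO library lay close to the highest WT one. Acsl3 rose 1.41-fold, with a log2 fold change of 0.50 (SE 0.140) and an adjusted p of 0.0452 in edgeR. Acsl5, a long-chain synthetase of mitochondria and endoplasmic reticulum, had 29.8, 24.3 and 26.8 CPM in WT and 41.7, 37.6 and 31.5 in DKO. All 3 DKO libraries lay above all 3 WT libraries. Acsl5 rose 1.37-fold, with a log2 fold change of 0.45 (SE 0.111) and an adjusted p of 0.0349. In both genes the order of the libraries within each group followed the fragment length, highest in DKO replicate 1 and lowest in DKO replicate 3. Some spermatocyte markers ran the same way in DKO replicates 1, 2 and 3. Sycp1 had 244, 198 and 133 CPM and Hormad1 167, 129 and 99.3 CPM, both overlapping the WT libraries. Sycp2 had 321, 254 and 211 CPM and Mlh3 51.8, 44.7 and 39.8 CPM, both above all WT libraries. Other markers did not run this way, such as Hspa2 at 1414, 1615 and 1563 CPM and Ccna1 at 105, 115 and 115 CPM. Of the 14 markers of spermatocytes, the germ cells in meiosis, 11 had positive log2 fold changes, and the median was 0.26. Sycp3 and Hormad1, 2 of the 14, were called higher, beside 5.75 percent of all genes. In CPM the groups did not overlap for 8 of the 14, 7 higher and 1 lower, beside 18.4 and 17.5 percent of all genes. The sum of the 14 was 6926 to 7229 CPM in DKO and 6594 to 7055 in WT, which overlapped (p = 0.2 in an exact permutation test). Ldhc, the most abundant of the 14, had 2809 to 3018 CPM over the 6 libraries. The part of spermatocyte content in Acsl3 and Acsl5 was not tested. With fragment length as a covariate the log2 fold changes were -0.15 for Acsl3 and -0.01 for Acsl5, neither passing. Without 1 library at a time, Acsl5 had 0.34 to 0.56 and passed without DKO replicate 3 or WT replicate 1, and Acsl3 had 0.31 (without DKO replicate 1) to 0.66 and passed without DKO replicate 3 alone.

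Acsl3 lies on chromosome 1 at 78657825-78707743 of GRCm38 and Acsl5 on chromosome 19 at 55251861-55296628. Acsl3 shares its start with Utp14b, a gene of germ cell ribosome production known from a mouse mutant that loses spermatogenesis, which RefSeq places at 78657825-78667601. The expected counts of both were fractional, as they are where RSEM divides reads between features. Utp14b had 28.0, 28.1 and 30.2 CPM in WT and 38.6, 33.5 and 35.3 in DKO, and it was also called higher, with a log2 fold change of 0.31 (SE 0.0799) and an adjusted p of 0.0372. How far the 2 values are independent was not tested. The 250 bases before the RefSeq start of each synthetase are shown because these are the synthetases that rose; capitals mark GC boxes (GGGCGG) and CCAAT boxes (CCAAT) on either strand. They are chr1:78657575-78657824 and chr19:55253119-55253368, both on the plus strand of GRCm38.p6 from RefSeq, the second before a start inside the annotated Acsl5 gene.
Acsl3: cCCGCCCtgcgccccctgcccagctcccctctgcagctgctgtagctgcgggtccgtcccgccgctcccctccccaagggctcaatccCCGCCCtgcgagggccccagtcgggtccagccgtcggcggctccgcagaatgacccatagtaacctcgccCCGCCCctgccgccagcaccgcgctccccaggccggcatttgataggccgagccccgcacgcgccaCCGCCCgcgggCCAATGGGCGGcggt
Acsl5: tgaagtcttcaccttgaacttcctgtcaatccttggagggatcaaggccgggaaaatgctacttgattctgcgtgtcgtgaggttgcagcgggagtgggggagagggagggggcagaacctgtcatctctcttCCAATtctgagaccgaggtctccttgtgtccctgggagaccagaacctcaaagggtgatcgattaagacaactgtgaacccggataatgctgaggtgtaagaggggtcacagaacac
The Acsl3 stretch had 75.6% G and C, 28 CpG dinucleotides, 5 GC boxes and 1 CCAAT box. The Acsl5 stretch had 52.8% G and C, 7 CpG dinucleotides, no GC box and 1 CCAAT box, so the promoters of the synthetases that rose did not look alike by these measures.

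Acsl4, a synthetase that favours arachidonate, had 17.2, 17.5 and 19.6 CPM in WT and 25.5, 23.7 and 19.7 in DKO. Its log2 fold change of 0.34 (SE 0.107) missed the threshold in edgeR at an adjusted p of 0.0587. It passed in 3 of 11 other fits on all libraries, DESeq2 among them. Acsl1, the most abundant synthetase, had 826, 643 and 724 CPM in WT and 891, 822 and 834 in DKO. These ranges overlapped, and its log2 fold change of 0.22 (SE 0.0919) had an adjusted p of 0.132. Acsbg2, a synthetase of the bubblegum class with high expression in testis, had 473, 396 and 426 CPM in WT and 337, 404 and 341 in DKO. Its log2 fold change was -0.26 (SE 0.0925) with an adjusted p of 0.0825 in edgeR. DESeq2 gave Acsbg2 an adjusted p of 0.0326, and limma on log2(TPM + 1) gave 0.0457. The related Acsbg1 had 147, 237 and 184 CPM in WT and 141, 153 and 164 in DKO, and the spread among the WT libraries covered the DKO values in part (log2 fold change -0.31, adjusted p 0.146). Acsl6 had a log2 fold change of 0.08 and an adjusted p of 0.495.

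Within a library, the share of the family's TPM held by each synthetase does not depend on how libraries are scaled. Acsl1 held 37.1% ± 3.04 of the summed synthetase TPM in WT and 43.2% ± 2.26 in DKO (SD, n = 3 each). Acsbg2 held 33.9% ± 1.62 in WT and 28.5% ± 2.36 in DKO. Acsl5 moved from 1.72% ± 0.105 to 2.37% ± 0.308 and Acsl3 from 1.41% ± 0.0366 to 2.0% ± 0.442. Of the 10 shares computed over the synthetase and carnitine palmitoyltransferase 1 families, 7 did not overlap between the groups. Each of those 7 had p = 0.1 in an exact permutation test, the smallest possible, and 0.143 after Benjamini-Hochberg adjustment over the 10. None therefore passed 0.05, and none could at this number of libraries. The shares of a family sum to 100%, so they are not independent of each other.

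**Figure D3:**
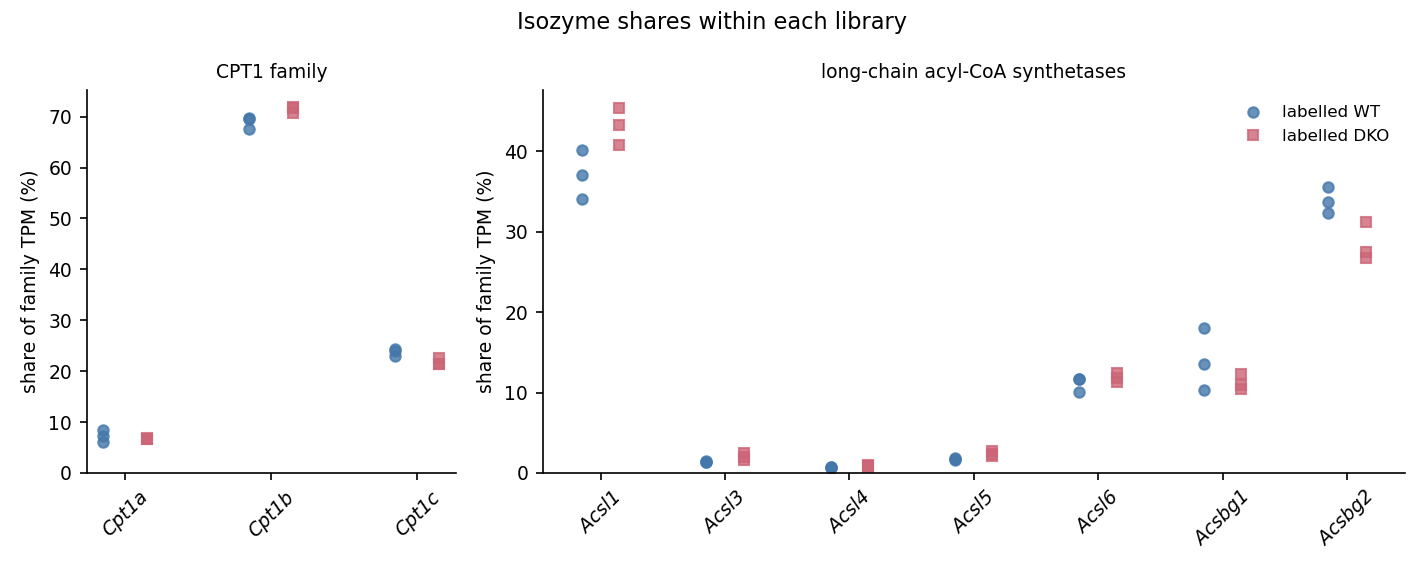
Share of the summed TPM of each enzyme family held by its members in each library, in percent, by group. Acsl1 lies at 43.2% on average in DKO against 37.1% in WT, and Acsbg2 at 28.5% against 33.9%.

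None of the 7 carnitine shuttle genes passed the test in edgeR, DESeq2 or limma, 0 had an unadjusted p under 0.05 in edgeR, and their median log2 fold change was -0.12. Cpt1b, the isoform best known from muscle, was the main one in testis, with 318, 299 and 317 CPM in WT and 299, 323 and 322 in DKO. Its log2 fold change was 0.01 (SE 0.0692), its counts were fractional, and a readthrough entry of Chkb and Cpt1b is also in the tables. Cpt1b held 69.0% ± 1.23 of the TPM of the 3 isoforms in WT and 71.4% ± 0.599 in DKO. Cpt1c, the isoform of endoplasmic reticulum with little known transferase activity, held 23.8% ± 0.656 and 21.9% ± 0.693. Cpt1a, the liver form, held 7.25% ± 1.24 and 6.72% ± 0.148, with overlapping groups. In CPM, Cpt1c had 107, 102 and 101 in WT and 85.8, 92.8 and 99.0 in DKO, a log2 fold change of -0.16 with an adjusted p of 0.170.

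Crat, which moves short acyl groups between carnitine and coenzyme A, was the most abundant shuttle gene at 846, 821 and 862 CPM in WT and 729, 834 and 764 in DKO. The ranges overlapped, and its log2 fold change of -0.12 (SE 0.0740) had an adjusted p of 0.287. Cpt2, the inner membrane transferase, had 58.6, 55.5 and 54.5 CPM in WT and 48.7, 51.9 and 54.5 in DKO, which did not overlap before rounding, with an adjusted p of 0.284. The carnitine transporter Slc22a5, Cpt1a and the peroxisomal octanoyltransferase Crot had log2 fold changes of -0.05, -0.14 and 0.01, with adjusted p of 0.365 or more.

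The 4 acyl-CoA dehydrogenases did not pass the test in edgeR either, where 1 (Acads) had an unadjusted p under 0.05. DESeq2 called that gene lower, and limma called 0. Acadvl, which acts on very long chains, had 26.4, 29.1 and 25.9 CPM in WT and 26.0, 26.2 and 26.0 in DKO (log2 fold change -0.06, adjusted p 0.637). Acadl, which acts on long chains, had 15.3, 26.0 and 22.4 CPM in WT and 18.6, 19.6 and 17.9 in DKO. Here the DKO libraries lay inside the WT range, and the adjusted p was 0.426. Acads, the short-chain enzyme, had 11.6, 14.8 and 11.9 CPM in WT and 9.39, 10.6 and 10.3 in DKO without overlap, at a log2 fold change of -0.34 (SE 0.112) and an adjusted p of 0.0691. Acadm, the medium-chain enzyme, had a log2 fold change of 0.14 and an adjusted p of 0.441.

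The mitochondrial trifunctional protein joins a subunit that hydrates and dehydrogenates long chains, Hadha, to one that carries the thiolase, Hadhb. Hadhb had 99.2, 99.8 and 97.4 CPM in WT and 130, 117 and 117 in DKO. The WT libraries lay within a narrow band and every DKO library lay above it. Hadhb rose 1.23-fold, with a log2 fold change of 0.30 (SE 0.0703) and an adjusted p of 0.0333. Its partner Hadha had 371, 366 and 381 CPM in WT and 410, 398 and 374 in DKO, which overlapped (log2 fold change 0.08, SE 0.0686, adjusted p 0.445). The TPM of Hadhb relative to Hadha in the same library was 0.539, 0.545 and 0.514 in WT and 0.650, 0.596 and 0.636 in DKO. This ratio, chosen for testing after the values were seen, differed by 0.24 on the log2 scale at p = 0.1 in an exact permutation test, the smallest possible. Without 1 library at a time the log2 fold change of Hadhb was 0.23 to 0.32, and it passed the threshold without DKO replicate 3 or WT replicate 1. With fragment length as a covariate it was 0.17 and did not pass.

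Both subunit genes start from 1 short stretch of chromosome 5, Hadha on the minus strand at 30119423-30154980 and Hadhb on the plus strand at 30155253-30184593 in RefSeq on GRCm38. The RefSeq starts lie 273 bases apart and the GENCODE starts 86. The 85 bases between the GENCODE starts, chr5:30155163-30155247 on the plus strand (letters from RefSeq's GRCm38.p6), are shown because both subunits read away from them and only Hadhb passed the test. Capitals mark GC boxes.
Hadha-Hadhb: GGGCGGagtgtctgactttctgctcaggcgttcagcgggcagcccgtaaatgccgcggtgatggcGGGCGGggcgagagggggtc
This stretch had 69.4% G and C, 9 CpG dinucleotides and 2 GC boxes. Whether Hadha and Hadhb differed in their response is given only by the ratio above.

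The remaining enzymes of the spiral had negative log2 fold changes that did not pass. Acaa2, a mitochondrial thiolase, had 20.0, 33.3 and 22.3 CPM in WT and 19.0, 20.0 and 17.2 in DKO, with a log2 fold change of -0.43 (SE 0.159). Its adjusted p was 0.0893 in edgeR and 0.0275 in DESeq2. Hadh, the short-chain hydroxyacyl dehydrogenase, had a log2 fold change of -0.23 (adjusted p 0.228), and Echs1, the short-chain hydratase, one of -0.11 (adjusted p 0.614).

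None of the 4 isomerases and reductases, which prepare unsaturated chains, passed in edgeR, where 2 had an unadjusted p under 0.05. DESeq2 called Ech1 lower, limma called 0, and their median log2 fold change was -0.21. Ech1, a dienoyl-CoA isomerase, had 52.8, 60.0 and 59.2 CPM in WT and 45.4, 50.2 and 48.7 in DKO. All DKO libraries lay below all WT libraries, at a log2 fold change of -0.25 (SE 0.0771) and an adjusted p of 0.0546 in edgeR. Eci2, an enoyl-CoA isomerase, had 5.65, 8.63 and 7.21 CPM in WT and 6.80, 6.27 and 6.20 in DKO, with overlap and an adjusted p of 0.451. Eci1, also an enoyl-CoA isomerase, had a log2 fold change of -0.42 (adjusted p 0.0764), and the dienoyl-CoA reductase Decr1 one of 0.05 (adjusted p 0.835).

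The electron transfer flavoprotein is a pair of Etfa and Etfb, and Etfdh passes its electrons on to the respiratory chain. Etfb had 23.9, 27.8 and 23.2 CPM in WT and 15.4, 15.9 and 19.7 in DKO. Every DKO library lay below every WT library. Etfb fell to 0.682 of its WT level, with a log2 fold change of -0.55 (SE 0.111) and an adjusted p of 0.0263. Etfa had 14.4, 18.7 and 17.3 CPM in WT and 17.1, 16.0 and 17.0 in DKO, a log2 fold change of -0.01 (SE 0.103, adjusted p 0.956). The TPM of Etfb relative to Etfa was 3.11, 2.72 and 2.49 in WT and 1.76, 1.91 and 2.18 in DKO, a log2 difference of -0.51 at p = 0.1 in an exact permutation test, the smallest possible, for a ratio also chosen after the values were seen. Etfdh had a log2 fold change of 0.19 (SE 0.130) and an adjusted p of 0.347.

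Etfb is short, at 904 bases in the tables. Among the shortest tested genes, a class of 292 to 978 bases in length, the median log2 fold change was -0.15 and 16% were called lower against 4.27% higher. With effective length as an offset the log2 fold change of Etfb was -0.48 (adjusted p 0.0316), and after a trend on length was removed it was -0.47 (adjusted p 0.0316). With fragment length as a covariate it was -0.18 and did not pass. Without 1 library at a time it was -0.67 to -0.47, and it passed without DKO replicate 3 or WT replicate 1.

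Etfb lies on chromosome 7 at 43444072-43457800, and RefSeq's models of Cldnd2, a claudin-domain gene at 43440740-43444130, overlap its start. Cldnd2 had 30.2, 24.9 and 26.5 CPM in WT and 16.3, 19.7 and 19.3 in DKO, and it was also called lower, with a log2 fold change of -0.56 (SE 0.102) and an adjusted p of 0.0237. The counts of Etfb and Cldnd2 were whole, and how far the 2 values are independent was not tested. Utp14b and Cldnd2 were picked because they overlap called genes, after the values were seen. In all, 17 of the 32 genes overlap another RefSeq gene, and whether the authors' counting used strand is not given in the sources used here. The 250 bases before the Etfb start, chr7:43443822-43444071 on the plus strand of GRCm38.p6 from RefSeq, are shown because Etfb was the gene that fell. All 250 lie inside the RefSeq span of Cldnd2, and exons of Cldnd2 were not marked. Capitals show CCAAT boxes, both on the minus strand.
Etfb: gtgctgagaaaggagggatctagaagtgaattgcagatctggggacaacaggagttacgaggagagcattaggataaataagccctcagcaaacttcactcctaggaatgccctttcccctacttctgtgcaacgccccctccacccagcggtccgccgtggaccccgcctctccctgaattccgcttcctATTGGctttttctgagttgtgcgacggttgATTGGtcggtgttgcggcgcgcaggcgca
This stretch had 55.6% G and C, 14 CpG dinucleotides, no GC box and 2 CCAAT boxes.

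**Figure D4:**
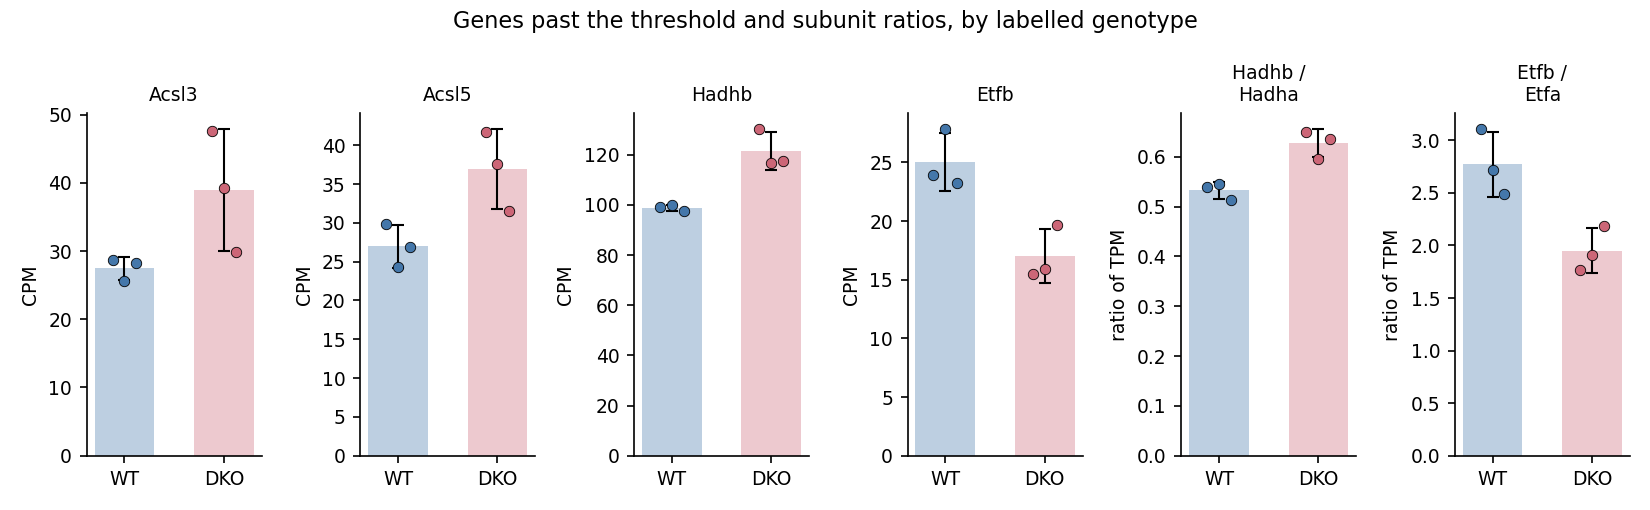
TMM-normalized CPM of the 4 called genes and the within-library ratios of TPM of Hadhb to Hadha and of Etfb to Etfa; points are the libraries labelled WT and DKO, bars are group means and error bars SD (n = 3). Acsl3, Acsl5, Hadhb and the ratio of Hadhb to Hadha lie higher in DKO, and Etfb and its ratio to Etfa lower, with no overlap of the points.

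The single thioesterase and the single regulator were the genes with the lowest levels. Acot2, which cleaves acyl-CoA in mitochondria, had 15, 35 and 42 counts in WT and 32, 28 and 34 in DKO, or 0.569, 1.04 and 1.36 against 0.769, 0.636 and 0.503 CPM. Its log2 fold change of -0.68 had an SE of 0.314 and an adjusted p of 0.162, and its counts were fractional, as were those of its near-copy Acot1, so its level is uncertain. Ppara, the nuclear receptor that drives many of these genes in liver, had 3.87, 4.48 and 3.72 CPM in WT and 3.53, 3.95 and 4.17 in DKO (log2 fold change -0.05, adjusted p 0.839).

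Many of the genes shared an order among the WT libraries. In 13 of the 32, WT replicate 1 was lowest, replicate 3 intermediate and replicate 2 highest, an order seen in 20.3% of all tested genes. They were Cpt1a, Acsbg1, 3 of the 4 acyl-CoA dehydrogenases (Acadl, Acadm and Acads), Echs1, Hadh, Acaa2, Ech1, Eci2, Decr1, Etfa and Etfdh. WT replicate 2 held the highest value in 18 of the 32, against 31.4% of all tested genes. Hadh had 32.7 CPM in replicate 1, 40.0 in replicate 3 and 50.1 in replicate 2, while its DKO libraries stayed between 33.8 and 36.2. The pattern was noticed in these libraries and carries no test.

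Summed markers of several cell types had the same order in WT, namely Leydig, Sertoli, peritubular myoid and macrophage markers and, of germ cells, spermatogonia. Endothelial, adipocyte and epididymal markers did not. Spermatocyte sums ran in the reverse order, at 7055, 6922 and 6594 CPM in WT replicates 1, 3 and 2. Spermatid sums did too, at 31331, 30557 and 28211 CPM. That reverse order was seen in 25.7% of all tested genes. Markers of Leydig cells, the steroid-making cells between the tubules, summed to 643, 896 and 1213 CPM in WT replicates 1, 3 and 2 and to 595, 668 and 458 in DKO replicates 1, 2 and 3, and 3 of 9 were called lower, beside 5.1 percent of all genes. Markers of Sertoli cells, which nurse the germ cells, summed to 1486, 1575 and 1781 CPM in WT replicates 1, 3 and 2 and to 1269, 1332 and 1514 in DKO, and 5 of 15 were called lower. Both sums overlapped between the groups (p = 0.2 for each in an exact permutation test). Peritubular myoid markers summed to 117 to 131 CPM in DKO and 133 to 176 in WT, and endothelial markers to 34.6 to 38.9 against 40.6 to 42.1, both lower in DKO without overlap at p = 0.1 in an exact permutation test, the smallest possible. Macrophage (p = 0.8), adipocyte (p = 0.3) and spermatogonia (p = 0.9) sums overlapped in the same exact test. Fragment length ran opposite to the Leydig and Sertoli sums, at 258, 246 and 230 bases in WT replicates 1, 3 and 2. The part of cell content and of fragment length in these levels was not tested.

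**Figure D5:**
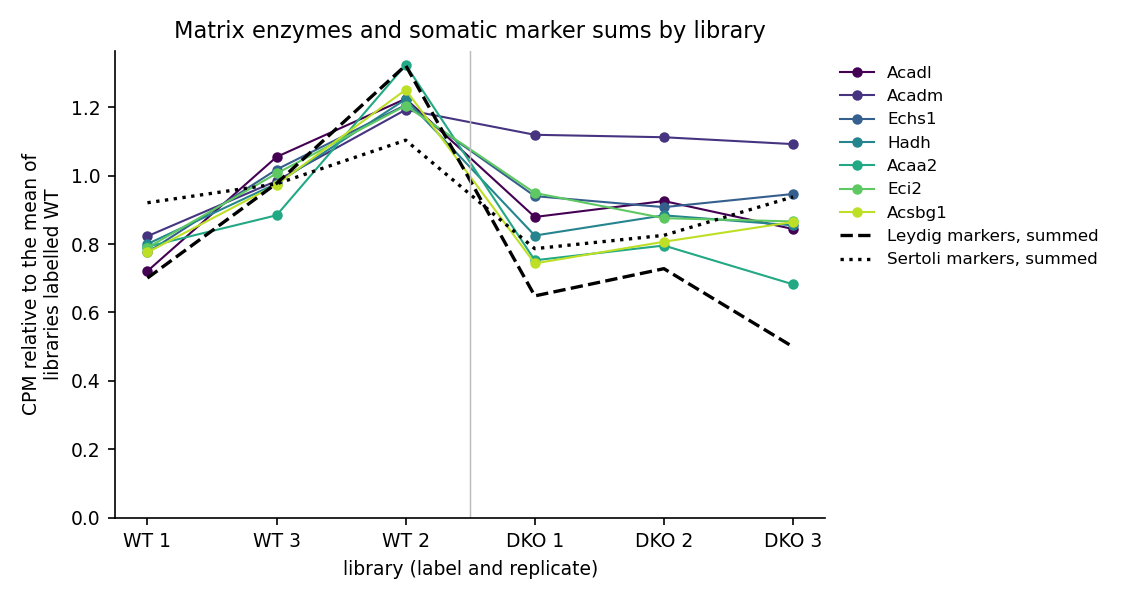
TMM-normalized CPM of Acadl, Acadm, Echs1, Hadh, Acaa2, Eci2 and Acsbg1 in each library as a ratio to the mean of the WT libraries, with the summed Leydig (dashed) and Sertoli (dotted) markers; the genes were picked after their values were seen, and lines only join the values of a gene. WT replicate 1 lies lowest and WT replicate 2 highest of the WT libraries for every line, and Hadh runs from 32.7 to 50.1 CPM there against 33.8 to 36.2 in DKO.

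Promoter letters were available from RefSeq for 27 of the 32 genes, in windows of 300 bases that end 50 bases into the transcript. The 5 genes without a window were Crat, Cpt1b, Acaa2, Decr1 and Acsbg2. The searches thus do not cover Crat, Acsbg2 and Cpt1b, which stood at 288, 248 and 175 TPM. None of the 27 held a pair of AGGTCA half-sites in the same direction with 1 base of any kind between them, the repeat bound by PPAR with RXR, which was in 0.0396% of all 32851 windows searched on both strands. The extended half-site of estrogen-related receptors, TCAAGGTCA, was in 1 of 27 (Acsl6) and 0.423% of all windows. GC boxes were in 21 of 27 genes, or 23 of their 30 windows, and in 35.7% of all windows. CCAAT boxes were in 14 of 27 genes, or 15 of 30 windows, and in 37.4% of all windows. The half-site TGACG was in 7 of 27 and 20.8% of all windows, and the full cyclic AMP element TGACGTCA, which contains it, in 0 of 27 and 1.79%. For motifs other than the GC and CCAAT boxes, the count of windows was the same as the count of genes. The windows of these genes had a median of 61% G and C beside 52.7% for all windows, and GC boxes are more likely by letters alone in such windows.

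Transcript choice was read from the abundance-weighted length. Of the 9 genes with more than 1 annotated transcript, Acsl1 and Etfb had the same length in every library and Cpt1c nearly so, so the measure cannot show a change of transcript in these 3. In the other 6 (Acsl3, Acsl4, Acsl6, Hadhb, Eci2 and Ppara) the lengths overlapped between the groups, where 8.24 percent of 4805 such genes were longer and 7.3 percent shorter in DKO.

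The wider pathway was read from 9 lists of related genes that leave these 32 out except where noted. Of 104 tested genes in them, 2 rose and 5 fell, 6.73% in all beside the 10.8 percent of all genes, with a median log2 fold change of -0.08. No gene was called among 17 of peroxisomal β-oxidation (a list that includes Ech1 and Crot), 14 other dehydrogenases, 9 carnitine carriers and malonyl-CoA enzymes, 7 of ketone metabolism or 11 of lipid droplets and lipolysis. In those lists 3, 2, 2, 0 and 3 genes had an unadjusted p under 0.05 in edgeR. DESeq2 called 2 of the peroxisomal list lower (Acaa1a and Ech1), 1 of the other dehydrogenases higher (Echdc1) and, of the lipid droplet list, 1 higher and 1 lower (Abhd5 and Plin2).

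Fatty acid and acyl-CoA binding proteins held 3 of the 7 calls among 12 tested. Fabp3, the heart-type carrier, had 76.6, 164 and 101 CPM in WT and 42.3, 70.9 and 52.3 in DKO, and it fell by 1.05 on the log2 scale (SE 0.242, adjusted p 0.0320). Its WT libraries ran in the order shared by the Leydig, Sertoli, peritubular myoid, macrophage and spermatogonia sums and by 20.3% of all tested genes. Its length was 640 bases, beside 646 for Fabp9 below, and with fragment length as a covariate its log2 fold change was -0.02. The part of cell content, length and fragment length in the Fabp3 values was not tested. Fabp5, the epidermal-type carrier, had 10.1, 14.2 and 11.3 CPM in WT and 6.29, 7.48 and 7.43 in DKO (log2 fold change -0.75, adjusted p 0.0237). Its WT libraries ran in the same order as those of Fabp3. Its length was 953 bases, within the shortest class, of which 16% were called lower. The part of cell content, length and fragment length in the Fabp5 values was not tested either. Fabp9, the carrier of spermatids and sperm, went the other way, with 821, 712 and 813 CPM in WT and 1005, 911 and 1057 in DKO (log2 fold change 0.34, adjusted p 0.0358).

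The other 4 calls were spread over the lists. Slc27a1, a fatty acid transport protein with synthetase activity, fell from 41.3, 51.7 and 42.5 CPM in WT to 27.7, 31.8 and 36.1 in DKO (log2 fold change -0.50, adjusted p 0.0295), 1 of 13 in its list. Among 10 other thioesterases, the peroxisomal Acot8 fell (17.8, 17.4 and 17.6 CPM against 10.7, 14.6 and 12.3, adjusted p 0.0301) and the mitochondrial Them4 rose (14.8, 16.4 and 17.1 CPM against 23.5, 19.5 and 20.3, adjusted p 0.0363). Of 13 PPAR and estrogen-related receptor regulators, Rxrb, a retinoid X receptor that pairs with PPARs, fell by 0.27 on the log2 scale (adjusted p 0.0438).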

How the data were processed

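The authors deposited, per the file headers, RSEM gene tables with expected counts, TPM, FPKM and abundance-weighted transcript lengths for each library. STAR 2.7.0f, RSEM 1.2.31, DESeq2 1.12.3 and mm10 are named in the submitters' processing notes, which give no roles. The deposited FPKM values were not used. Of the deposited expected counts 93.2% were whole within 0.005, and all were rounded to whole numbers for testing.

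The 6 libraries entered 1 fit, edgeR 4.0.16 (R 4.3.3) with TMM scaling, filterByExpr and the quasi-likelihood test, with a call at a Benjamini-Hochberg adjusted p under 0.05. SE is the log2 fold change over the square root of F, and CPM is TMM-normalized. The labels give no batch. Levels of different genes, shares and ratios were compared in deposited TPM. On counts simulated for 17003 genes at this design, 14% of genes changed by 0.3, 44% by 0.5 and 79.2% by 1 (log2) were recovered. Small changes were thus recovered least often. The simulation changed only 48 to 50 genes at each size, far fewer than the 1856 called in the data. Its adjustment over all genes was therefore stricter, and these rates do not give the share of differences missed here. The members and all lists were chosen with earlier results of these data known. Named genes are those called, the 2 with the highest mean TPM in each role, isozymes, and called genes of the wider lists (at most 3 a list); other members are named after their values were seen. The subunit ratios, overlapping genes, order of WT libraries, GC box, CCAAT box and TGACG searches were also chosen after seeing the data. Alternatives were DESeq2 1.42.0 and its size factors, other filters, thinned counts, length and fragment corrections, limma 3.58.1 (voom, and log2 TPM plus 1 or 0.1), and leaving out each library.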

Additional observations from a re-analysis of the deposited data

How the results depend on the processing

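Depth, fragment length and group cannot be told apart, since DKO libraries were deeper (ratio of means 1.75) and longer in fragments (1.2). Of the 32 genes, 4 were called; DESeq2 called 9, limma on TPM 2 with either pseudocount, a fragment length covariate 0 (0 at unadjusted p under 0.05), an adjusted p under 0.01 called 0, and 0 to 12 were called without 1 library (0 without DKO replicate 1, WT replicate 2 or WT replicate 3, with 11, 10 and 9 at unadjusted p under 0.05; 1 without DKO replicate 2; 12 without WT replicate 1). Over 11 other fits on all libraries Etfb passed in 10, Hadhb and Acsl5 in 8 and Acsl3 in 7, with adjusted p up to 0.999, from the fragment covariate. Of all genes 1856 were called, with 2943 by DESeq2 (1645 higher, 1298 lower), 735 and 947 by limma on TPM plus 1 and 0.1, 1 with the fragment covariate, 7 under 0.01, and 7 to 3039 without 1 library (11 without DKO replicate 1, 668 without DKO replicate 2, 3039 without DKO replicate 3, 18 without WT replicate 2, 7 without WT replicate 3). The count over all genes without WT replicate 1 is not given here, nor is the count of the 32 without DKO replicate 3. The 12 called without WT replicate 1 thus have no share of all genes beside them and are no result about the list. Of the wider lists' genes 7 were called, 14 by DESeq2, 11 without a filter, 4 by limma on TPM plus 1, 0 with the fragment covariate (2 at unadjusted p under 0.05) and 0 to 14 without 1 library.

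Reversed log2 fold changes with the fragment covariate were Acadl 0.16, Acadvl 0.0143, Acsbg1 0.23, Acsl1 -0.0551, Acsl3 -0.15, Acsl5 -0.0131, Cpt1a 0.14, Crot -0.0680, Decr1 -0.0686, Echs1 0.20, Eci2 0.0036, Etfa 0.15, Hadh 0.15, Hadha -0.0337, Ppara 0.27 and Slc22a5 0.13. With a length trend they were Cpt1b -0.0042, Crot -0.0050 and Etfa 0.0368, and with effective lengths Crot -0.0011 and Etfa 0.0099. On TPM plus 1 they were Cpt1b -0.0450, Crot -0.0398 and Decr1 -0.0037, and plus 0.1 Cpt1b -0.0452, Crot -0.0462 and Decr1 -0.0034. Leaving out 1 library gave Cpt1b -0.0236 to 0.0346, Crot -0.0946 to 0.0977, Decr1 -0.0721 to 0.13, Echs1 -0.27 to 0.0432, Etfa -0.13 to 0.0676, Ppara -0.11 to 0.0329 and a difference in the Cpt1a share of -1.14 to 0.0980 percentage points. The cause was not tested. No paired analysis was possible because the replicates were numbered in accession order and the labels pair no samples.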

Other observations

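Several relatives of these genes, some of them testis-enriched, stood at high levels in all 6 libraries. Of those named here, Fabp9 alone passed the test in edgeR (adjusted p 0.0358). By mean TPM over the libraries, Dbil5, a testis acyl-CoA binding protein, reached 5555 and Fabp9 3453, far above Dbi, the widely expressed acyl-CoA binding protein, at 133. The acyl-CoA thioesterase Acot7 reached 1041 TPM, with a log2 fold change of -0.23 (adjusted p 0.0866 in edgeR). It had 957, 920 and 942 CPM in WT and 725, 889 and 793 in DKO, without overlap, and DESeq2 called it lower. Dbil5 had a log2 fold change of -0.21 (adjusted p 0.112). Oxct2a and Oxct2b, germ cell forms of the ketone body transferase, stood at 262 and 339 TPM against 18.8 for the somatic form Oxct1, and the expected counts of this near-identical pair were fractional, so their split is uncertain. The carnitine transporters Slc22a16 and Slc22a21 stood at 163 and 91.8 TPM, against 17.6 for Slc22a5 and 0.485 for Slc22a4.

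Just outside the threshold in edgeR lay Echdc1 (adjusted p 0.05002), Acot9 (0.0505), Abhd5 (0.0528) and Pparg (0.0530) of the wider lists. Pparg, the nuclear receptor of fat cells, had 1.44, 1.31 and 1.68 CPM in WT and 2.26, 2.41 and 2.01 in DKO. Its log2 fold change was 0.59, on 38, 44 and 52 counts in WT and 94, 106 and 136 in DKO. The 6 adipocyte markers had negative log2 fold changes, with a median of -0.61, and 0 were called.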
